A study of Mus musculus with 9 samples.

Results

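The genes described here are 7 genes of B lymphocytes and antibody production: Igha and Ighm, which encode immunoglobulin heavy chain constant regions, Cd79a, Cd79b, Ms4a1, Bank1 and Pax5. They were taken as all probe sets of the deposited table whose single gene symbol was one of the 7, which gave 21 of 45101 probe sets. Ighm had 11 probe sets, Igha 3, Ms4a1 and Pax5 2 each, and Cd79a, Cd79b and Bank1 1 each. Another 4 probe sets listed Ighm together with other symbols and were not used.

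The data are 9 Affymetrix mouse arrays, 1 for each RNA sample of a cell population sorted from lungs of female 4get mice on the BALB/c background, aged 6 to 8 weeks. In 4get mice a green fluorescent protein reports Il4 expression. Every population came from mice that received IL-25 in the trachea daily for 4 days (0.5 µg in a volume of 50 µL), so no array holds untreated cells. All cells were CD11b+, enriched on magnetic columns before the sort, and each replicate pooled 4 donor mice. The arrays labelled T2M (type 2 myeloid, 3 arrays) held cells gated as F4/80+, Gr-1mid and MHCIIlo with IL-4/GFP+ and IL-5rα-. The eosinophil label (2 arrays) stood for IL-5rα+, Gr-1hi cells that were IL-4/GFP-, F4/80- and MHCIIlo. Cells under the neutrophil label (2 arrays) were Gr-1+ and MHCIIlo, and negative for IL-4/GFP, IL-5rα and F4/80. Under the macrophage label (2 arrays) they were MHCII+ and F4/80+, and negative for IL-4/GFP, IL-5rα and Gr-1. No gate named a B cell antigen, either to keep or to remove such cells.

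The labels did not always match the markers of the cell types they name. Of 6 eosinophil markers measured, 3 were called higher on T2M-labelled than on eosinophil-labelled arrays and 0 lower, and Il5ra averaged 7.58 and 5.19 there. Of 8 neutrophil markers, 4 were called higher on eosinophil-labelled than on neutrophil-labelled arrays. Of 8 macrophage markers, 2 were called higher on neutrophil-labelled than on macrophage-labelled arrays and 0 lower. For that reason each population goes by its array label, and the gates above are those the labels give. Whether labels were exchanged between arrays was not tested, and if they were, the values below belong to other populations than the label names. The macrophage-labelled arrays correlated at 0.994 over all probe sets, against 0.915 to 0.970 for other pairs of one label, and 1 RNA hybridised on both arrays cannot be told apart from 2 similar pools. The actin control probe sets read higher at the 3′ than at the 5′ end on 2 arrays, T2M replicate 1 (0.61) and eosinophil replicate 1 (0.54), while the other arrays had differences of -0.10 to 0.03. The same difference for the Gapdh controls was 2.35 to 3.43 on T2M-labelled, 1.09 to 2.41 on eosinophil-labelled, 1.45 to 2.20 on neutrophil-labelled and 1.02 to 1.20 on macrophage-labelled arrays. Macrophage-labelled arrays, in whose comparisons most calls of members lay, thus had the lowest range of this difference, and eosinophil replicate 2 (1.09) lay within it. No T2M- or neutrophil-labelled array overlapped them in it. In those comparisons the label and this difference cannot be told apart. The part of RNA quality in the results was not tested.

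B lymphocytes recognise antigen through a membrane immunoglobulin, at first IgM, held in a complex with the Cd79a and Cd79b chains, which carry the signal into the cell. After activation some become plasma cells, which secrete antibody in bulk and express immunoglobulin genes at very high levels. At mucosal surfaces such as the airways the main secreted class is IgA. Pax5 is the transcription factor that commits precursors to the B lineage and turns on Cd79a among other genes.

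The data fell into 2 patterns. All 3 Igha probe sets, 5 of 11 Ighm probe sets and Cd79b were called lower on T2M-labelled than on macrophage-labelled arrays, by up to 48.4-fold. These are 9 of 21 probe sets, where 7.85% of all probe sets were called lower. Called lower than on macrophage-labelled arrays were 10 of 21 on eosinophil-labelled arrays (8.12% of all probe sets) and 9 of 21 on neutrophil-labelled arrays (0.779%), and these 3 comparisons share both macrophage-labelled arrays. Bank1 alone was higher on T2M-labelled arrays than on those of each other label, by 6.60-fold to 15.2-fold. Higher calls made up 1.00% of all probe sets against eosinophils, 0.855% against neutrophils and 4.78% against macrophages. Cd79a, Ms4a1 and Pax5 were not called in any of the 6 comparisons between labels. The promoters of Bank1, the gene called higher on T2M-labelled arrays, and Cd79a, a B cell gene that was not, are shown for comparison. RefSeq promoters (GRCm38.p6) were at hand for 3 of the 7 genes, Bank1, Cd79a and Pax5, each from 250 bases before to 50 after a transcript's start. The Bank1 window is chr3:136326017-136326316 on the minus strand and the Cd79a window chr7:24897247-24897546 on the plus strand, printed 5′ to 3′ along the gene.
Bank1: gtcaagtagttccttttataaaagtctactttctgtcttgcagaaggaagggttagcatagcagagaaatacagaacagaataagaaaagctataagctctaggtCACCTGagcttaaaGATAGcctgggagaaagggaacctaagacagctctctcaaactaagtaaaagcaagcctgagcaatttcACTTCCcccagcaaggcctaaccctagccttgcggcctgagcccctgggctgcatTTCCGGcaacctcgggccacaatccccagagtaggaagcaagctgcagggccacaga
Cd79a: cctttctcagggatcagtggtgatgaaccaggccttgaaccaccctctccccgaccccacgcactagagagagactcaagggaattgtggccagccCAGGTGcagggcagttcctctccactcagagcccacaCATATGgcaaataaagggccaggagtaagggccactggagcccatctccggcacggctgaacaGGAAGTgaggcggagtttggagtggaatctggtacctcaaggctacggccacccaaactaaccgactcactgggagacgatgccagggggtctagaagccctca
Capitals mark matches on either strand to 3 short motifs, and no match overlapped another. The ETS core (GGAAGT or CCGGAA) occurred 2 times in the Bank1 window and 1 time in that of Cd79a, and 32.1% of 32851 promoters of the same length hold it. The E-box (CANNTG) occurred 1 time in Bank1 and 2 times in Cd79a (72.3% of promoters). The GATA core (GATAA or GATAG) occurred 1 time in Bank1 and 0 times in Cd79a (41.6% of promoters). These matches describe letters only.

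Values are the deposited log2 expression values per probe set, and a difference subtracts the second label from the first and carries limma's standard error (SE). Over all 9 arrays 1 limma fit covered 45037 probe sets, and a probe set was called at a two-sided Benjamini-Hochberg adjusted p under 0.05 within a comparison. Levels are compared between arrays for 1 probe set at a time, and the height of 1 probe set over another is not read as more RNA. By Affymetrix's naming, probe sets ending in _x_at hold probes that may bind other transcripts, and those ending in _s_at are shared by several transcripts or genes. Immunoglobulin genes resemble each other closely, so which heavy chain a probe set with such an ending measured is uncertain. No probe sequences were at hand, so what the other Igha and Ighm probe sets bind was not checked either.

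Igha, the constant region of the IgA heavy chain, read higher on both macrophage-labelled arrays than on all others. Probe set 1421653_a_at stood at 8.60, 9.35 and 9.05 on T2M-labelled arrays, 7.97 and 7.65 on eosinophil-labelled arrays, 8.81 and 9.37 on neutrophil-labelled arrays, and 12.93 and 13.26 on macrophage-labelled arrays. The macrophage-labelled arrays did not overlap those of any other label. The difference was -4.10 (SE 0.30, adjusted p = 4.16e-04, limma) for T2M minus macrophages, -5.29 (SE 0.33) for eosinophils minus macrophages and -4.00 (SE 0.33) for neutrophils minus macrophages. Probe set 1425763_x_at read 7.41, 7.14 and 6.46 (T2M), 7.06 and 6.36 (eosinophils), 7.29 and 8.76 (neutrophils), and 12.34 and 12.86 (macrophages). Its difference of -5.60 for T2M minus macrophages (SE 0.49, 48.4-fold, limma adjusted p = 8.12e-04) was the largest in size of any member in that comparison, and it reached -5.89 for eosinophils minus macrophages. The third, 1429381_x_at, read 6.76 to 7.10 (T2M), 6.92 and 7.05 (eosinophils), 7.07 and 7.67 (neutrophils), and 10.54 and 11.36 (macrophages), with a T2M minus macrophages difference of -4.00 (SE 0.31). In bulk RNA a higher share of immunoglobulin-producing cells and more immunoglobulin RNA per cell cannot be told apart.

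The Igha means of the other 3 labels lay closer to each other than to that of the macrophage label. For 1421653_a_at T2M averaged 8.999 ± 0.377 and neutrophils 9.092 ± 0.400 (SD, n = 3 and 2), and these neighbours differed by less than their spread. Eosinophil-labelled arrays were lowest at 7.81 ± 0.23 (n = 2), but neither T2M minus eosinophils (1.19, adjusted p = 0.0850, limma) nor eosinophils minus neutrophils (-1.28, adjusted p = 0.0656) passed. The first passed with array weights (adjusted p = 0.0403, limma) and the second without T2M replicate 1 (adjusted p = 0.0472). On 1425763_x_at the neutrophil-labelled arrays were spread over 7.29 and 8.76, and T2M minus neutrophils gave -1.03 (adjusted p = 0.370, limma). For this probe set the call of neutrophils minus macrophages ended without either macrophage-labelled array, with an adjusted p of up to 0.0982.

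Ighm, the constant region of the IgM heavy chain, gave different answers by probe set. The probe sets 1425247_a_at, 1425324_x_at, 1427756_x_at, 1427869_at and 1427870_x_at followed the Igha pattern. The first of these read 4.73, 5.54 and 5.75 (T2M), 5.10 and 5.37 (eosinophils), 5.60 and 5.21 (neutrophils), and 9.29 and 9.44 (macrophages). Its T2M minus macrophages difference was -4.03 (SE 0.33, 16.3-fold, limma adjusted p = 6.33e-04). For 1427756_x_at the values were 5.28, 5.31 and 5.10 (T2M), 4.46 and 4.42 (eosinophils), 5.11 and 4.74 (neutrophils), and 8.48 and 8.96 (macrophages), a T2M minus macrophages difference of -3.49 (SE 0.24). The other 3 of this group differed by -2.28 (1425324_x_at), -2.26 (1427869_at) and -2.74 (1427870_x_at) in the same comparison. All 5 were also called lower on eosinophil-labelled arrays (-4.28 to -2.39) and neutrophil-labelled arrays (-3.96 to -2.36) than on macrophage-labelled ones. Without either macrophage-labelled array 1425324_x_at, 1427869_at and 1427870_x_at lost the call of neutrophils minus macrophages, and without macrophage replicate 2 the call of 1427869_at for T2M minus macrophages ended (adjusted p = 0.0570, limma). These 5 probe sets were grouped by their calls against the macrophage label. On them no array of another label overlapped the macrophage-labelled arrays, as the plot of the Ighm probe sets shows. The share of all probe sets that separate in this way was not taken.

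The remaining 6 Ighm probe sets did not follow that pattern. Probe set 1427351_s_at, whose mean over the 9 arrays was the highest of the 11, read 11.77, 11.39 and 10.70 (T2M), 10.78 and 8.74 (eosinophils), 12.03 and 11.05 (neutrophils), and 10.08 and 10.22 (macrophages). Its macrophage-labelled arrays were below all T2M- and neutrophil-labelled ones, with T2M minus macrophages at 1.14 (SE 0.60, adjusted p = 0.222, limma) and neutrophils minus macrophages at 1.39 (SE 0.66, adjusted p = 0.342). An analysis that keeps only this probe set for Ighm therefore holds none of the 5 called ones. Probe set 1427329_a_at read 8.37, 8.79 and 8.31 (T2M), 8.83 and 7.32 (eosinophils), 10.08 and 9.58 (neutrophils), and 9.47 and 9.45 (macrophages). There T2M averaged 8.49 ± 0.26 and neutrophils 9.83 ± 0.35 (SD, n = 3 and 2) without overlap, and the difference of -1.34 did not pass (adjusted p = 0.172, limma). Probe set 1452535_at had the same order of labels as Igha 1421653_a_at, with means of 6.38 (T2M), 6.03 (eosinophils), 7.62 (neutrophils) and 7.77 (macrophages). It was called only for eosinophils minus macrophages (-1.74, adjusted p = 0.0481, limma), a call that held in 6 of 18 other settings and ended, among others, without either eosinophil-labelled or either macrophage-labelled array. The last 3, 1425385_a_at, 1426196_at and 1451949_at, spanned 0.86, 0.87 and 0.86 over the 9 arrays and were not called in any comparison.

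**Figure D1:**
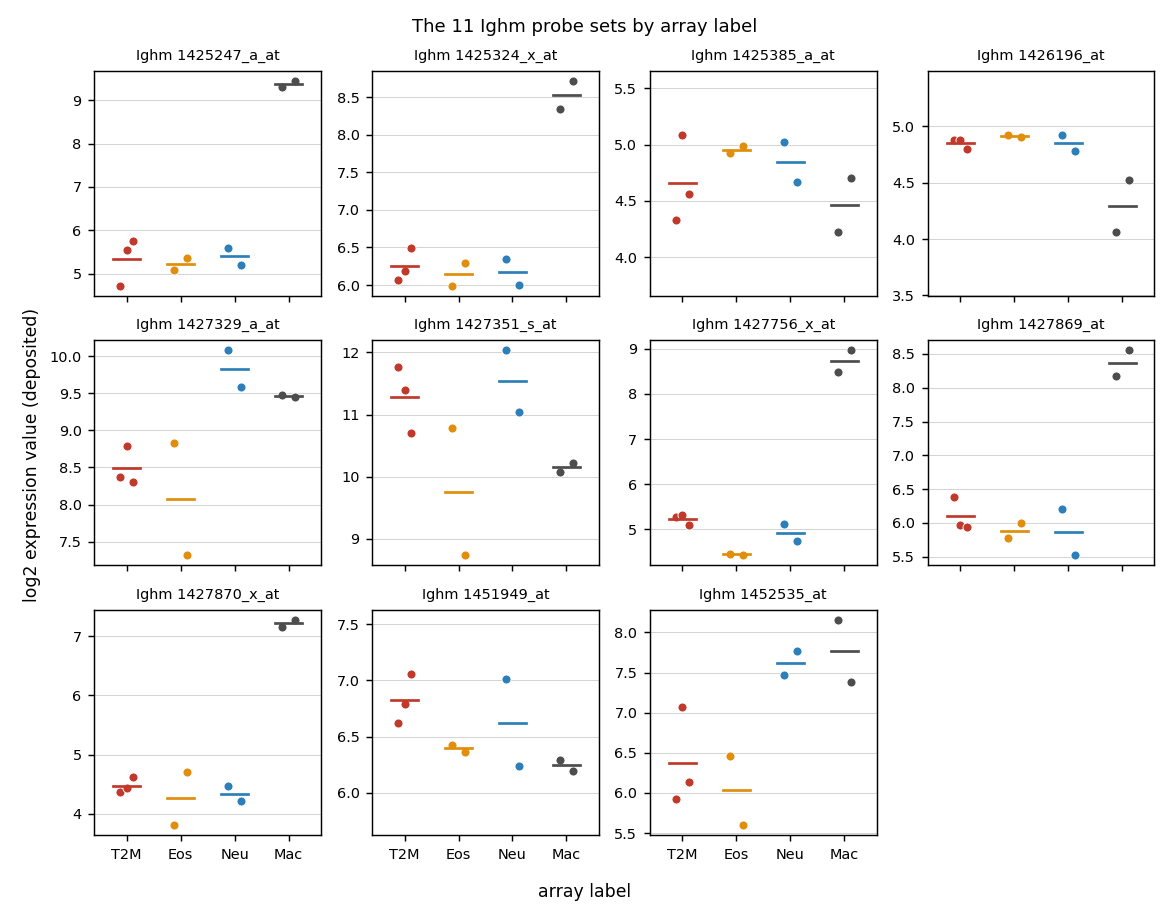
Deposited log2 expression values (vertical axes) of the 11 Ighm probe sets by array label (T2M, Eos for eosinophils, Neu for neutrophils, Mac for macrophages); points are arrays and bars are label means. In 5 panels the macrophage-labelled arrays stand above all others, while on 1427351_s_at they lie at 10.08 and 10.22, below every T2M-labelled array.

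Of the 2 chains that signal for the B cell receptor, Cd79b was called and Cd79a lay near the threshold in 1 comparison. Cd79b (Ig-beta) read 5.55, 5.60 and 5.21 on T2M-labelled arrays, 5.90 and 5.05 on eosinophil-labelled arrays, 5.39 and 5.86 on neutrophil-labelled arrays, and 8.35 and 7.97 on macrophage-labelled arrays. Both macrophage-labelled arrays were above all others, and the other 3 labels overlapped. The difference was -2.70 for T2M minus macrophages (SE 0.32, 6.51-fold, limma adjusted p = 0.00274), -2.69 for eosinophils minus macrophages (adjusted p = 0.00292) and -2.53 for neutrophils minus macrophages (adjusted p = 0.0135). The last of these did not pass without either macrophage-labelled array or without neutrophil replicate 1 (adjusted p up to 0.160 over all settings).

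Cd79a (Ig-alpha), the partner of Cd79b in the same complex, read 6.35, 6.99 and 7.05 (T2M), 6.67 and 5.51 (eosinophils), 7.44 and 6.72 (neutrophils), and 7.72 and 7.57 (macrophages). The macrophage-labelled arrays again had the highest values, but the next array lay at 7.44. The differences from macrophages were -0.85 for T2M (SE 0.40, adjusted p = 0.183, limma), -1.56 for eosinophils (SE 0.44, adjusted p = 0.0562) and -0.57 for neutrophils (SE 0.44, adjusted p = 0.499). The difference of eosinophils minus macrophages passed in 8 other settings (adjusted p = 0.00778 to 0.0497, limma), among them without T2M replicate 1, eosinophil replicate 1 or either neutrophil-labelled array. Whether the Cd79a and Cd79b differences differ from each other was not tested.

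Ms4a1, which encodes the B cell surface protein CD20, varied widely between arrays of 1 label. Probe set 1450912_at read 8.66, 7.14 and 7.10 (T2M), 6.02 and 5.44 (eosinophils), 8.37 and 6.36 (neutrophils), and 7.37 and 6.78 (macrophages). T2M replicate 1 and neutrophil replicate 1 were the 2 highest arrays. T2M minus eosinophils was 1.90 without overlap (SE 0.67, adjusted p = 0.209, limma). On 1423226_at the same 2 arrays were highest, at 6.81 for T2M replicate 1 and 7.67 for neutrophil replicate 1. No comparison of either probe set passed, and with only the arrays of the 2 labels eosinophils minus macrophages of 1450912_at did (-1.35, adjusted p = 0.0459, limma). T2M replicate 1 is also 1 of the 2 arrays on which the actin control ends differed, and the part of this in the Ms4a1 values was not tested.

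Pax5, which holds B cells to their lineage, hardly varied. Probe set 1421765_at lay between 6.10 and 6.81 on all 9 arrays and 1454401_at between 4.45 and 4.89. The differences of both probe sets ran from -0.40 to 0.32 over the 6 comparisons, and none passed. The label means of 1421765_at were 6.55 ± 0.19 (T2M, n = 3), 6.29 ± 0.05 (eosinophils, n = 2), 6.23 ± 0.17 (neutrophils, n = 2) and 6.62 ± 0.26 (macrophages, n = 2, all SD).

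**Figure D2:**
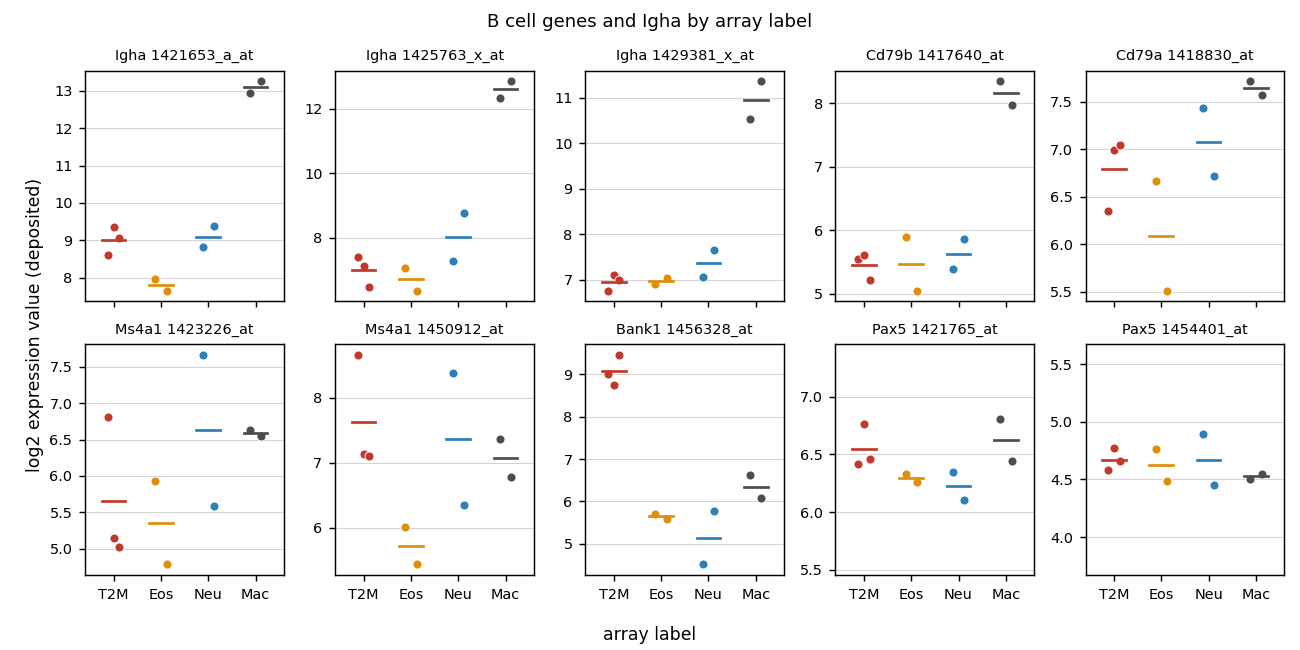
Deposited log2 expression values (vertical axes, a separate scale for each panel) of the 10 probe sets of Igha, Cd79b, Cd79a, Ms4a1, Bank1 and Pax5 by array label; points are arrays and bars are label means. Igha and Cd79b stand apart on macrophage-labelled arrays, at 10.54 or more and 7.97 or more, and Bank1 on T2M-labelled arrays, at 8.74 to 9.46.

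Bank1 encodes a scaffold protein of B cells that links the antigen receptor to Src-family kinases and calcium release. Its probe set read 9.01, 8.74 and 9.46 on T2M-labelled arrays, 5.70 and 5.59 on eosinophil-labelled arrays, 4.51 and 5.78 on neutrophil-labelled arrays, and 6.61 and 6.08 on macrophage-labelled arrays. The lowest T2M-labelled array, at 8.74, stood above the highest other array, at 6.61, and each label's difference from T2M was called. T2M minus eosinophils was 3.43 (SE 0.40, 10.8-fold, limma adjusted p = 0.00644), T2M minus neutrophils 3.93 (15.2-fold, adjusted p = 0.0111) and T2M minus macrophages 2.72 (6.60-fold, adjusted p = 0.00631). Those 3 comparisons share the T2M-labelled arrays. The macrophage label came next at 6.35 ± 0.38, then eosinophils at 5.64 ± 0.08 and neutrophils at 5.15 ± 0.90 (SD, n = 2 each), and none of these neighbours differed beyond the test. Without neutrophil replicate 2 neutrophils minus macrophages passed (-1.84, adjusted p = 0.0299, limma). The call against eosinophils ended without eosinophil replicate 2 (3.37, adjusted p = 0.0541), and that against macrophages ended without either macrophage-labelled array (adjusted p = 0.0541 and 0.0810). The call against neutrophils held without any 1 array and ended with only the arrays of those 2 labels in the fit (adjusted p = 0.0970). That call also ended with the replicate number as a block, a fit given in the closing section. Without the 2 arrays of differing actin ends the call against eosinophils also ended (3.51, adjusted p = 0.0528).

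Markers of eosinophils were on average, like Bank1, highest on T2M-labelled arrays, while the order of the other labels differed. The mean over 6 eosinophil markers was 8.59 to 9.07 on T2M-labelled arrays, 5.58 to 6.20 on eosinophil-labelled arrays, 4.27 to 6.57 on neutrophil-labelled arrays and 4.25 to 4.33 on macrophage-labelled arrays. Of these 6 markers, 3 were called higher on T2M- than on eosinophil-labelled arrays, 3 against neutrophils and 6 against macrophages. The shares of all probe sets called higher there were 1.00%, 0.855% and 4.78%. The mean over 8 markers of plasmacytoid dendritic cells was 7.08 to 7.17 on T2M-labelled arrays and 6.74 to 7.46 on the others, with 0 of 8 called in any comparison. Epithelial and stromal markers averaged 8.40 to 8.86 on T2M-labelled arrays and 6.63 to 6.85 on macrophage-labelled arrays. They averaged 7.99 to 8.01 on eosinophil-labelled and 7.31 to 8.16 on neutrophil-labelled arrays. Of 9, 4 were called higher on T2M- than on macrophage-labelled arrays, and 0 were called against eosinophils or neutrophils. The part of these cells in the Bank1 difference was not tested.

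Counted over the 21 member probe sets, the calls lay mostly with the macrophage label. For eosinophils minus macrophages 10 were called lower (8.12% of all probe sets) and 0 higher (4.75%), while for neutrophils minus macrophages 9 were lower (0.779%) and 0 higher (0.722%). Leaving out 1 array changed the counts of neutrophils minus macrophages, both for the members and for all probe sets, as the closing section gives. The 21 are not independent, since 3 of them carry the symbol Igha and 11 Ighm. Their medians against macrophages were -0.97 (T2M), -1.56 (eosinophils) and -0.57 (neutrophils), and those of all probe sets 0.17, 0.18 and 0.15.

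For T2M minus eosinophils and T2M minus neutrophils, Bank1 was the 1 member called, where 3.16% and 1.79% of all probe sets were called. For eosinophils minus neutrophils 0 of 21 were called by limma, against 5.68% of all probe sets. An unadjusted p under 0.05 was met by 5 of the 21 and by 8592 of all 45037 probe sets. Of those 5 members, Ighm 1427329_a_at gave -1.76 (adjusted p = 0.0717, limma) and Ighm 1427351_s_at gave -1.78 (adjusted p = 0.181). Without eosinophil replicate 1 the difference of 1427329_a_at passed (-2.51, adjusted p = 0.0248, limma). The medians over the members were 0.29, -0.06 and -0.23 in these 3 comparisons.

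**Figure D3:**
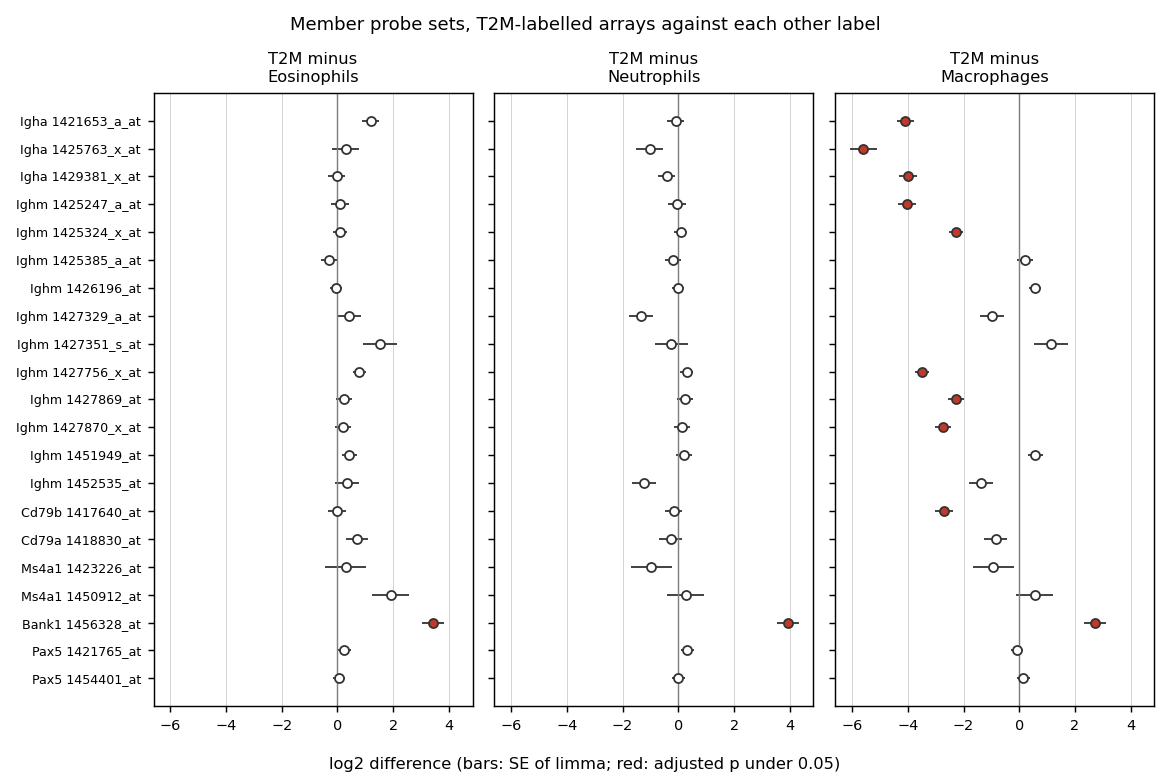
Log2 differences (horizontal axis) of the 21 member probe sets for T2M-labelled minus eosinophil-, neutrophil- and macrophage-labelled arrays; bars are the SE of limma and red points passed an adjusted p of 0.05. Bank1 is the only red point in the first 2 panels, and in the third it lies at 2.72 beside 9 red points between -5.60 and -2.26.

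Other immunoglobulin genes were examined next, mostly light chain variable genes. For these and the lists that follow, the shares of all probe sets called for T2M minus macrophages were 7.85% lower and 4.78% higher. Of 17 measured, 5 were called lower on T2M-labelled than on macrophage-labelled arrays and 0 higher, with a median of -0.23. The 4 largest were the kappa variable genes Igk-V21 (-3.70, SE 0.87), Igkv9-120 (-3.33, SE 0.86), Igkv15-103 (-2.57, SE 0.31) and Igkv8-30 (-2.07, SE 0.47). For eosinophils minus macrophages 3 of 17 were lower (8.12% of all probe sets), with Igkv8-30 at -2.69. For neutrophils minus macrophages 1 of 17 was lower (0.779% of all probe sets), Igkv15-103 at -1.87. The lambda gene Iglv1 gave -1.23, -1.26 and -0.48 in these comparisons and did not pass. Igkv8-30 was also high on neutrophil-labelled arrays, with means of 10.01 (T2M), 9.39 (eosinophils), 11.80 (neutrophils) and 12.08 (macrophages).

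**Figure D4:**
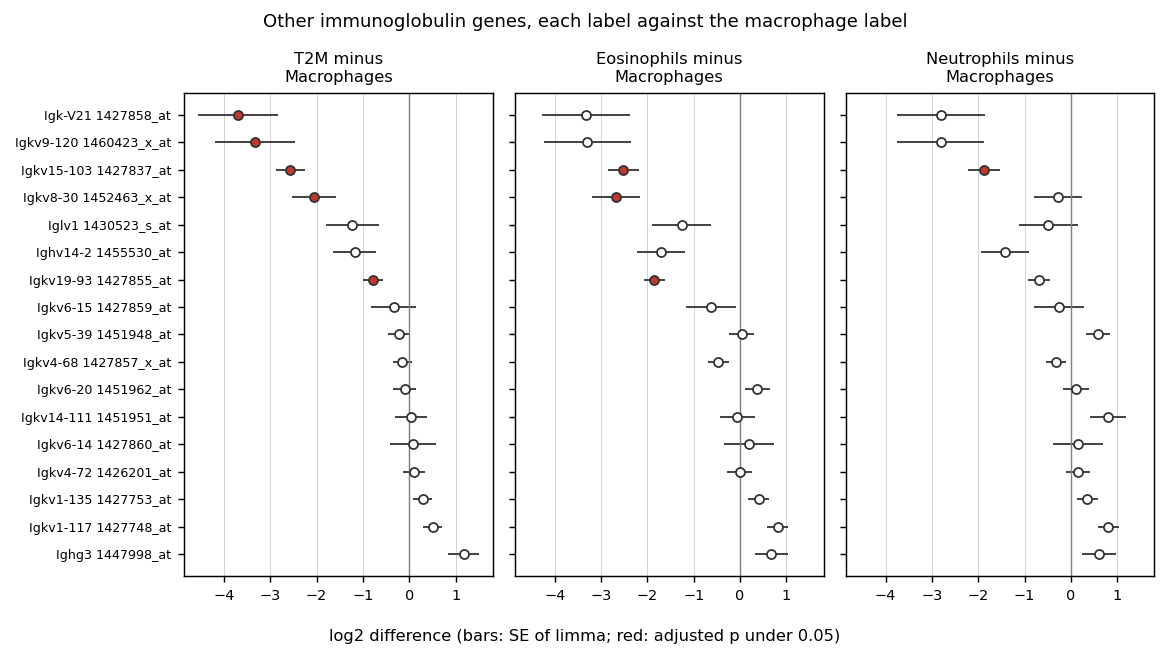
Log2 differences (horizontal axis) of 17 other immunoglobulin genes for T2M-, eosinophil- and neutrophil-labelled minus macrophage-labelled arrays; bars are the SE of limma and red points passed an adjusted p of 0.05. Red points number 5, 3 and 1 in the 3 panels, and all lie below 0.

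Plasma cell genes did not move as 1 group. Of 9 measured, 1 was called lower on T2M- than on macrophage-labelled arrays, Mzb1 (-0.98, adjusted p = 0.0272, limma), a chaperone cofactor of antibody assembly, and 1 higher, the elongation factor gene Ell2 (2.65). Jchain, the joining chain of IgA and IgM polymers, read 9.65, 7.76 and 5.95 (T2M), 7.98 and 5.92 (eosinophils), 7.42 and 8.08 (neutrophils), and 10.12 and 10.62 (macrophages). It was highest on both macrophage-labelled arrays, but the T2M-labelled arrays were spread widely and the difference of -2.59 did not pass (SE 1.00, adjusted p = 0.121, limma). Sdc1, the plasma cell surface proteoglycan CD138, was lower on T2M- than on neutrophil-labelled arrays (-3.26, adjusted p = 0.0180, limma) and not called against macrophages. For neutrophils minus macrophages it was called higher (4.12, adjusted p = 0.00599, limma), with means of 9.66 and 5.54, the other way from Igha. It was the 1 of 9 plasma cell genes called there, where 0.722% of all probe sets were higher. Irf4 (-1.40) and Mzb1 (-1.31) were also called lower on T2M- than on neutrophil-labelled arrays. Mzb1 averaged 7.31 on neutrophil-labelled and 6.97 on macrophage-labelled arrays. Prdm1 and Xbp1, transcription factors of plasma cells that myeloid cells also express, were lower on T2M- than on eosinophil-labelled arrays (-3.19 and -1.94).

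B cell identity genes had 6 of 13 called lower on T2M- than on macrophage-labelled arrays and 1 higher. The largest difference was that of H2-Ob (-6.23, SE 0.82), a modifier of MHC class II loading in B cells, followed by H2-DMb2 (-3.34) and Cd180 (-2.66), a relative of Toll-like receptors. The 1 called higher was Cd24a (3.26), which many immature and myeloid cells express. Against eosinophils H2-Ob was also lower on T2M-labelled arrays (-3.89), and 12 of 13 did not pass, where 3.16% of all probe sets were called. Ly86, which encodes the partner of Cd180, gave -1.48 against macrophages and did not pass. The labels give the T2M gate as MHCIIlo and the macrophage gate as MHCII+, so, if the labels hold, MHC class II genes such as H2-Ob are not independent of the sort.

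B lineage transcription factors had 3 of 12 called lower on T2M- than on macrophage-labelled arrays, Bcl6 (-2.43), Spib (-1.79) and Ikzf1 (-1.06), and 1 higher, Ebf1 (0.84). Spib, a PU.1 relative of B cells and plasmacytoid dendritic cells, was also lower on eosinophil-labelled (-2.48) and neutrophil-labelled (-1.99) than on macrophage-labelled arrays. Ikzf3, which encodes Aiolos, a factor of mature lymphocytes, had its highest mean on T2M-labelled arrays. T2M minus eosinophils was 3.36 for Ikzf3 (SE 0.75) and did not pass (adjusted p = 0.0581, limma). The recombinase and surrogate light chain genes among 7 precursor genes were not called in any comparison. Of the list, Il7r (2.95, adjusted p = 0.0499, limma) was called higher on T2M- than on macrophage-labelled arrays. Cd93 was called lower on eosinophil- than on neutrophil-labelled (-1.29, adjusted p = 0.0372, limma) and macrophage-labelled arrays (-1.42, adjusted p = 0.0146).

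Genes of receptor signalling and its surface partners were mostly not called. Of 18 measured, 1 was lower on T2M- than on macrophage-labelled arrays, Dapp1 (-1.45), and 1 higher, Pik3ap1 (1.10), both adaptors of phosphoinositide signalling. Counts of 1 in 18 are near the shares of all probe sets (7.85% lower and 4.78% higher). The inhibitory co-receptor gene Cd22 averaged 6.73 (T2M), 6.50 (eosinophils), 6.63 (neutrophils) and 8.84 (macrophages), and T2M minus macrophages of -2.10 did not pass (adjusted p = 0.0877, limma). Against eosinophils and neutrophils 0 of 18 were called on T2M-labelled arrays, where 3.16% and 1.79% of all probe sets were called.

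The mean over 7 B cell markers, the 7 members with 1 probe set each, was 7.86 to 8.05 on T2M-labelled arrays, 6.32 to 7.05 on eosinophil-labelled arrays, 7.32 to 7.56 on neutrophil-labelled arrays and 8.33 to 8.55 on macrophage-labelled arrays. For T2M minus macrophages the median of these 7 was -0.08, with Igha (-4.10) and Cd79b (-2.70) called lower and Bank1 (2.72) called higher. Among 11 T cell genes, 2 were called lower on T2M- than on macrophage-labelled arrays, Cd4 (-3.74) and Cd5 (-1.15), and 1 higher, Cd3e (2.00), where 7.85% of all probe sets were lower and 4.78% higher. The part of B or plasma cells in the immunoglobulin values of the macrophage-labelled arrays was not tested.

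Genes whose values followed each member most closely over the 9 arrays were taken by Pearson correlation among 12833 genes, as a description, with 9 arrays in 4 labels behind each value. For Igha (1421653_a_at) these were Rnf150 (0.994), Mfng (0.983) and Adam23 (0.981), and for Cd79b Trappc5 (0.986), Adam23 (0.980) and Csad (0.974). Adam23 averaged 5.46 (T2M), 5.11 (eosinophils), 5.80 (neutrophils) and 9.995 (macrophages). For Bank1 they were Pim2 (0.953), Rabgap1l (0.949) and Abcc1 (0.946). Pim2, a survival kinase, averaged 8.56 on T2M-labelled arrays and 6.90, 6.58 and 6.88 on those labelled eosinophils, neutrophils and macrophages. Ighm 1427351_s_at was followed by Nrp2 (0.941), Cdca8 (0.941) and Uqcrb (0.927), Ms4a1 by Hspa8 (0.945), and Cd79a by Taf3 (0.953). For Pax5 no likeness was taken, because its values spanned 0.70.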

How the data were processed

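Per the submitters' processing notes, the deposited values were made with RMA, and affy and limma are named there; versions and settings are not given in the sources used here. The deposited table holds log2 expression values per probe set, from 50 ng of RNA of 400000 sorted cells per array. The number of arrays (3, 2, 2 and 2) limits the precision. Genes were named through GEO's platform annotation: 34945 probe sets carried 1 symbol, 932 several and 9160 none.

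Group means of all 9 arrays were fitted with limma 3.58.1 in R 4.3.3 over 45037 probe sets, leaving out 64 controls, with a two-sided Benjamini-Hochberg adjusted p under 0.05 in each of 6 comparisons. The fit was tested on simulated data. Tables and figures used Python 3.11.15 and matplotlib 3.10.9. Each replicate is a pool of mice. Whether mice were shared between pools is not given, so p-values measure the spread between these samples.

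Every member probe set was examined. Other lists used 1 probe set per gene, the one with the highest mean, and up to 4 called and 2 uncalled genes with the largest differences were named per comparison. The members and lists were chosen with earlier results of these data known. Another 9 settings, and 3 more chosen after seeing the data, are given in the closing section.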

Additional observations from a re-analysis of the deposited data

How the results depend on the processing

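No difference of a member probe set that was called or reached 1 changed direction under any alternative. Of 31 called differences of member probe sets, 20 stayed called in every setting that tested them. The comparisons follow the order T2M minus eosinophils, T2M minus neutrophils, T2M minus macrophages, eosinophils minus neutrophils, eosinophils minus macrophages and neutrophils minus macrophages, with 1421, 804, 5689, 2557, 5797 and 676 probe sets called. With 1 probe set per gene, so fewer tested, these were 812, 513, 3123, 1433, 3163 and 412, and the 3 macrophage comparisons had 3, 3 and 2 members. With array weights the first 5 were 2532, 55, 20748, 904 and 12484, with 2 members against eosinophils and 16 for T2M minus macrophages. With only the arrays of the 2 labels they were 626, 0, 9370, 0, 9873 and 96, with 0 members for T2M minus neutrophils and 3 for neutrophils minus macrophages. In the 2 comparisons with 0 calls by limma, 5251 (T2M minus neutrophils) and 6297 (eosinophils minus neutrophils) probe sets had an unadjusted p under 0.05, with 3 members in each.

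With the macrophage-labelled arrays averaged to 1, chosen after seeing the data, the counts were 570, 47, 560, 1142, 1301 and 93, with 4 members for neutrophils minus macrophages. Without the 2 arrays of differing actin ends, also chosen then, T2M minus eosinophils had 883 calls and 0 members (5 at an unadjusted p under 0.05, limma), and eosinophils minus neutrophils 2 members. Leaving out each array gave 334 to 2199, 47 to 1564, 566 to 9477, 1125 to 3608, 1248 to 8120 and 87 to 5457 calls, and 0 to 1, 1 to 1, 8 to 11, 0 to 1, 9 to 11 and 4 to 10 members. Where this left a label with 1 array, that array was assumed to vary like the others. The cause of these changes was not tested beyond the fewer probe sets or arrays named.

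With the replicate number as a block the counts were 574 (T2M minus eosinophils), 1 (T2M minus neutrophils), 3031 (T2M minus macrophages) and 415 (neutrophils minus macrophages). For T2M minus neutrophils 0 members were called by limma, and 2 members and 5946 of all probe sets had an unadjusted p under 0.05. The block ended the calls of Bank1 for T2M minus neutrophils (adjusted p = 0.0732, limma) and of Ighm 1452535_at for eosinophils minus macrophages. Deviations of arrays with the same number correlated at 0.455 and 0.384 for T2M with eosinophils and at -0.096 to 0.136 for the other pairs of labels, and the labels do not say what a number marks. With 2 pairs for T2M and eosinophils, whose replicate 1 arrays also share the differing actin ends, the numbers were not taken to pair the samples. Shifting the arrays to a common median moved the median of all probe sets for T2M minus macrophages to 0.03, from 0.17, and the share of lower among called probe sets to 73.5%, from 62.2%. The same shift turned the sign of that median for T2M minus eosinophils (-0.05, from 0.05) and eosinophils minus neutrophils (0.02, from -0.04). For T2M minus neutrophils the share of lower was 42.0% after quantile normalization and 25.5% with array weights, against 52.1%.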

Other observations

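The 2 neutrophil-labelled arrays differed from each other in light chain variable genes. Igkv9-120 read 4.26 on neutrophil replicate 1 and 7.21 on replicate 2, and Igk-V21 read 5.05 and 8.05, while on both macrophage-labelled arrays they were at 8.59 and 8.50 (Igkv9-120) and 9.36 and 9.35 (Igk-V21). Ms4a1 1450912_at ran the other way on the neutrophil-labelled arrays, at 8.37 and 6.36. The inhibitory co-receptor gene Cd22 read 8.11 on T2M replicate 1, against 6.02 and 6.07 on the other T2M-labelled arrays, and Ms4a1 was also highest on that replicate. Cd4, which some macrophages as well as T cells express, read 11.18 and 10.88 on the macrophage-labelled arrays.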
